A study of Mus musculus with 6 samples.

Results

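Glycolysis breaks glucose down to pyruvate, lactate dehydrogenase interconverts pyruvate and lactate, and glycogen is the store of glucose inside the muscle cell. The genes described here are 32 genes of these routes, taken by symbol from a deposited table of 52550 gene rows, and each of the 32 had a row. Of these, 31 reached an FPKM (fragments counted on a gene, scaled to its transcript length and to the library size) of at least 0.5 in all 6 libraries and were tested. The exception was Aldoc, the aldolase isoform of brain, which was listed between 0 and 0.262 FPKM and was not tested.

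The hearts came from C57BL/6 mice of 2 genotypes, wild type (WT, 3 libraries) and lncRNA-DRR-/- (KO, 3 libraries), the latter lacking a long non-coding RNA. Both groups had the left anterior descending coronary artery tied permanently at 8 weeks of age, and their hearts were collected at 10 weeks, 2 weeks after the infarction. Sham-operated animals are mentioned in the protocol and were not analysed here, so every comparison is between infarcted hearts. Whole hearts were frozen, and the labels do not say how much scar or surviving wall each library holds. The labels do not say whether replicates came from separate litters or sessions, and p-values therefore cover only the spread among these 6 hearts, which may be partly technical. The row of the deleted RNA was not identified, and the genotype labels could not be checked on it.

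The adult heart burns mostly fatty acids and lactate, and it leans more on glycolysis when oxygen is short. Most steps of glycolysis are carried by several isoforms, of which muscle uses its own: the carrier Slc2a4 (GLUT4), hexokinase Hk2, phosphofructokinase Pfkm, phosphoglycerate mutase Pgam2, enolase Eno3 and glycogen phosphorylase Pygm. Phosphofructokinase is switched on by fructose 2,6-bisphosphate, a signal molecule that the 4 PFKFB enzymes both make and remove; Pfkfb2 is known as the heart isoform, Pfkfb3 as an isoform induced by hypoxia and in dividing cells, Pfkfb1 as the liver and skeletal muscle isoform and Pfkfb4 as the testis isoform.

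None of the 31 tested genes differed between genotypes at an adjusted p under 0.05 (limma on log2(FPKM + 0.5), Benjamini-Hochberg over 14656 genes), a threshold that 0.375% of all tested genes passed (0.273% higher and 0.102% lower in KO hearts). The smallest adjusted p was 0.151, for Pfkfb2. At an unadjusted p under 0.05 there were 4 genes, or 12.9%, against 8.48% of all tested genes (3.8% higher, 4.68% lower): Pfkfb2 and Hk1 were lower in KO hearts, Pfkfb1 and Pfkfb3 higher. The count was 2 without WT replicate 2 and 2 without WT replicate 3, against 5.81% and 7.35% of all tested genes. It was highest with no library scaling, at 6, against 7.51% of all tested genes. The deposited FPKM of the groups did not overlap for 9 genes, or 29.0%, against 12.8% of all tested genes. In 7 of the 9 the KO values were the lower ones, and the background for that direction was 7.5%. In 2 the KO values were the higher ones, with a background of 5.29%. After library scaling, on the values that limma tested, the groups did not overlap for 5 genes, or 16.1%, against 14% of all tested genes. These were Hk1, Eno3 and Pfkfb2, lower in KO hearts (background 7.49%), and Pfkfb3 and Pgam1, higher (background 6.53%), while Pfkm, Tpi1, Pkm, Pygm and Pfkfb1 overlapped on that scale. Ranges given below are of deposited FPKM.

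The estimated difference was below 0 for 23 of 31 genes, or 74.2%, against 50.7% of all tested genes. The median over the 31 was -0.06 log2 units, against -0.004 for all genes. Without KO replicate 2 the same count was 16 of 31 and the median -0.02. For 28 of the 31, the 95% interval of the difference lay within 1 unit of 0 on either side on the log2(FPKM + 0.5) scale, which for genes of a few FPKM or less does not bound the fold change. In the plot of differences by role, the PFKFB genes spread to both sides of 0 and the other genes lie between -0.43 and 0.31.

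**Figure D1:**
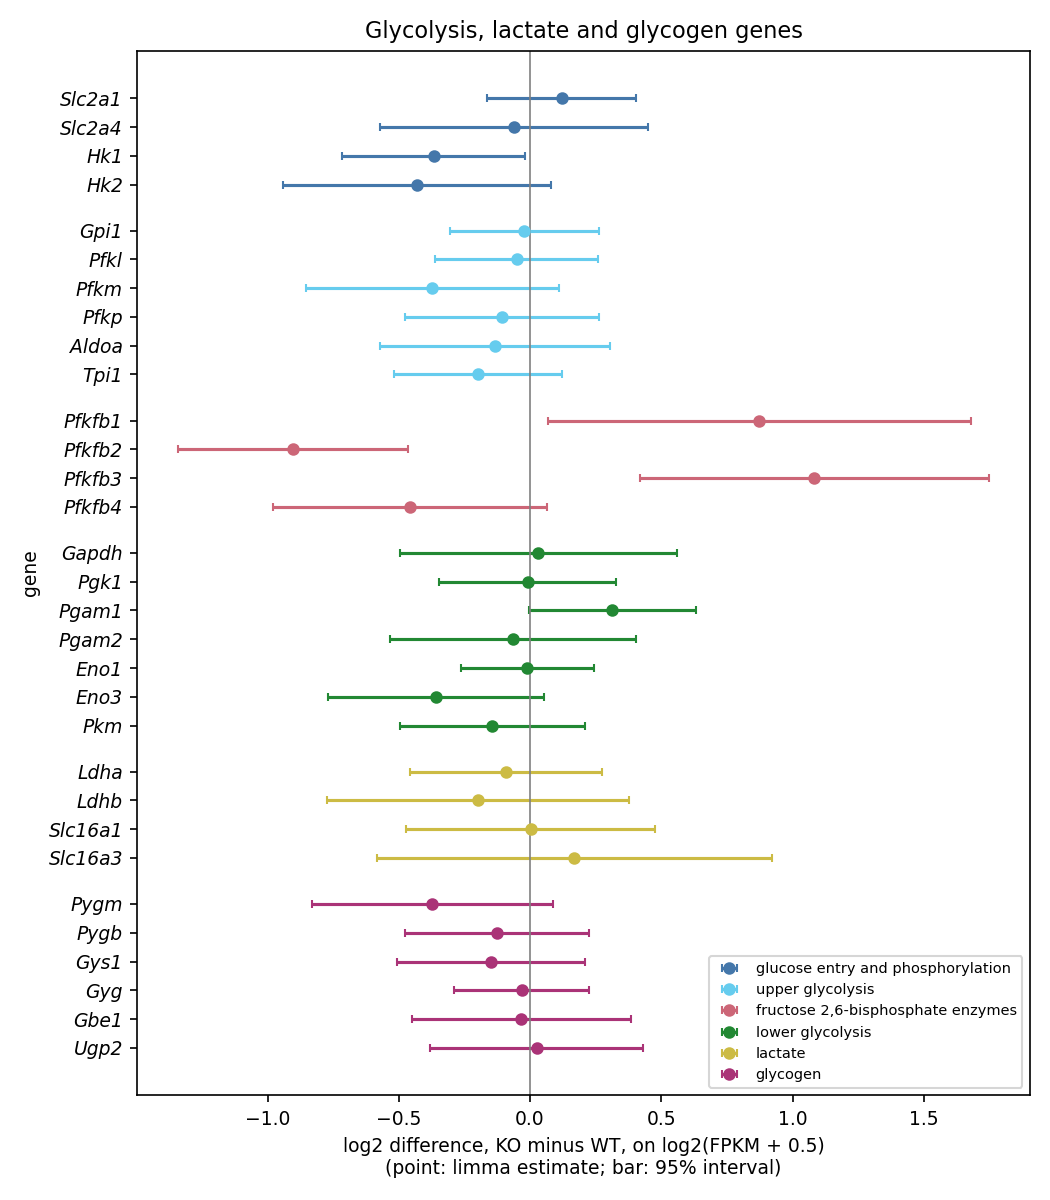
Log2 difference in level, KO minus WT, for the 31 tested genes (x axis, on the log2(FPKM + 0.5) scale) by gene (y axis), with points for limma's estimates, bars for 95% intervals and colours for the role. Pfkfb3 at 1.08 and Pfkfb2 at -0.90 lie farthest from 0, and 4 intervals exclude 0.

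The libraries hold about 5190000 to 9400000 fragments, as estimated from the steps of the FPKM values, and scaling factors lay between 0.949 and 1.07. All 37 mitochondrially encoded rows are listed at 0, so a value of 0 in this table cannot be read as absence. KO replicate 3 had Xist at 25.6 FPKM, against at most 0.0742 elsewhere, and Ddx3y at 0.0280, against 13.0 to 16.2, so on these genes it looks female, and the other 5 look male. Without it, 24 of 31 genes were lower in KO hearts and none was called. An unadjusted p under 0.05 was then found for 4 of the 31, against 9.60% of all tested genes.

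Among the PFKFB genes, Pfkfb2 stood lower and Pfkfb3 higher in every KO heart than in any WT heart, both in deposited FPKM and after library scaling. Pfkfb2 (ENSMUSG00000026409.14, chromosome 1, 130689182 to 130729253, minus strand, in GENCODE M21 on GRCm38) measured 4.96, 6.63 and 6.68 FPKM in WT replicates 1 to 3 and 2.84, 2.71 and 3.39 FPKM in KO replicates 1 to 3. The lowest WT heart thus lay above the highest KO heart. Its mean level was 6.09 ± 0.979 FPKM in the WT set, against 2.98 ± 0.359 FPKM in the KO set (SD, n = 3 each), a ratio of 0.490. The log2 difference was -0.90 ± 0.19 (SE; 95% interval -1.34 to -0.46), with limma's unadjusted p = 0.00164 and adjusted p = 0.151. Leaving out each library in turn gave -1.08 to -0.80, with adjusted p between 0.111 and 0.505.

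Pfkfb3 (ENSMUSG00000026773.19, chromosome 2, 11471433 to 11554077, minus strand) went the other way. It measured 1.70, 3.07 and 2.10 FPKM in the WT set, against 4.93, 8.07 and 3.61 FPKM in the KO set, with KO replicate 2 the highest. The means were 2.29 ± 0.708 and 5.54 ± 2.29 FPKM (SD, n = 3 each), a ratio of 2.42. Its log2 difference was 1.08 ± 0.28 (SE; 95% interval 0.42 to 1.75), with limma's unadjusted p = 0.00599 and adjusted p = 0.283. The range over left-out libraries was 0.84 to 1.31, with adjusted p between 0.193 and 0.552.

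Pfkfb1 (ENSMUSG00000025271.13, chromosome X, 150588229 to 150643878, plus strand) was close to the test's lower limit in WT hearts, at 0.700, 0.570 and 0.730 FPKM. In KO hearts it measured 2.42, 0.744 and 2.09 FPKM. KO replicates 1 and 3 stood well above every WT heart, while KO replicate 2 lay just above the highest WT heart in deposited FPKM and below it after library scaling. The log2 difference was 0.87 ± 0.34 (SE; 95% interval 0.07 to 1.68), with limma's unadjusted p = 0.0371 and adjusted p = 0.532. Leaving out each library in turn gave 0.62 to 1.28, with adjusted p between 0.0883 and 0.933. The difference was 1.28 without KO replicate 2 (adjusted p = 0.0883) and 0.62 without KO replicate 1 (adjusted p = 0.856). Pfkfb4 measured 2.06, 1.37 and 1.24 FPKM in the WT set, against 0.771, 1.50 and 0.746 FPKM in the KO set. These groups overlapped through KO replicate 2, and the log2 difference of -0.46 ± 0.22 (SE) had an adjusted p of 0.661 in limma.

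**Figure D2:**
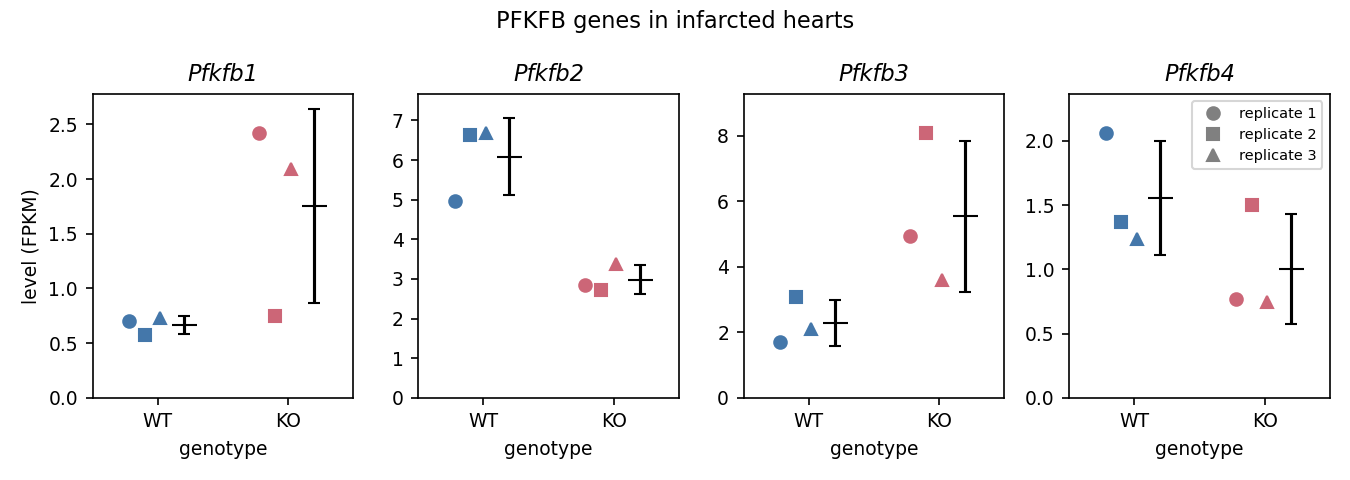
Level in FPKM (y axis, linear from 0, own scale per panel) of the 4 PFKFB genes in WT and KO infarcted hearts (x axis), with 1 marker per library shaped by its replicate number and a black bar for each group's mean with the SD. Pfkfb2 lies at 4.96 to 6.68 FPKM in WT and 2.71 to 3.39 FPKM in KO, and Pfkfb3 at 1.70 to 3.07 and 3.61 to 8.07 FPKM.

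Because FPKM is scaled by length, the PFKFB genes can also be set against each other within a library. This comparison was added after the values above were seen. Pfkfb2 made up 52.7%, 56.9% and 62.1% of the summed PFKFB FPKM in the WT hearts and 25.9%, 20.8% and 34.5% in the KO hearts. The leading PFKFB transcript was thus Pfkfb2 in all WT hearts, and in all KO hearts it was Pfkfb3. The share of Pfkfb3 was 18.0%, 26.4% and 19.6% in WT and 45.0%, 62.0% and 36.7% in KO hearts. Each of these shares had a two-sided exact permutation p of 0.1, the smallest that 3 against 3 can give. The shares have a common denominator and were taken after both genes were seen not to overlap, so these p-values are no separate evidence. The share of Pfkfb1 overlapped between genotypes, with means of 6.37% and 16.3% and an exact permutation p of 0.3. Pfkfb4 went from a mean share of 15.1% in WT to 8.71% in KO hearts, with groups that did not overlap, by a narrow margin (11.505% against 11.500%), and an exact permutation p of 0.1.

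The start regions of these genes are printed because the 3 differ most between genotypes. Each window runs from 250 bases before to 50 bases after an annotated start (RefSeq, GRCm38.p6), is written 5′ to 3′ on the gene's strand, and has in capitals the bases that match a searched motif. The motifs were the E-box CACGTG, which the circadian clock factors and MYC are known to bind; ACGTG, the core of hypoxia response elements, which every CACGTG also contains; the D-box TTANGTAA; and the glucocorticoid receptor core ACANNNTGT, each on both strands. Pfkfb2 has 3 windows, of which the one with most GENCODE coding transcripts starting within 50 bases (5) and the one with an E-box are shown, for Pfkfb3 the window with most coding transcripts is shown, and for Pfkfb1 the first of 3 windows tied at 1 coding transcript.
Pfkfb2, chr1:130714527-130714826, minus strand: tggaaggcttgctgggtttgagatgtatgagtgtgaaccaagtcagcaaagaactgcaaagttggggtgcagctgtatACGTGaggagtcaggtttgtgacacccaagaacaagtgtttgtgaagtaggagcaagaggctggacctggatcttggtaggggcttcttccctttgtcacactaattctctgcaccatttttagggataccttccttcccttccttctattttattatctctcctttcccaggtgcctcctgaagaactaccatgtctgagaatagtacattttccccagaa
Pfkfb2, chr1:130715772-130716071, minus strand: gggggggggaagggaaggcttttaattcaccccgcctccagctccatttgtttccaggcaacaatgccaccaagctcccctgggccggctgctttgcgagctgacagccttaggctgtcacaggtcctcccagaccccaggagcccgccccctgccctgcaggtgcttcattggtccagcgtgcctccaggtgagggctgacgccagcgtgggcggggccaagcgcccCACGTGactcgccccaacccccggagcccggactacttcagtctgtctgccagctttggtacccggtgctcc
Pfkfb3, chr2:11502041-11502340, minus strand: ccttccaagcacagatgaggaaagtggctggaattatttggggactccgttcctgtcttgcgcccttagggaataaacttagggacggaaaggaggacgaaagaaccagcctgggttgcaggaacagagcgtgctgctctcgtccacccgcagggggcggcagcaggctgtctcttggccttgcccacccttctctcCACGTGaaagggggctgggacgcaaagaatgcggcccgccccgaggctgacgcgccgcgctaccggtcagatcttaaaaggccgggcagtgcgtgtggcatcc
Pfkfb1, chrX:150587993-150588292, plus strand: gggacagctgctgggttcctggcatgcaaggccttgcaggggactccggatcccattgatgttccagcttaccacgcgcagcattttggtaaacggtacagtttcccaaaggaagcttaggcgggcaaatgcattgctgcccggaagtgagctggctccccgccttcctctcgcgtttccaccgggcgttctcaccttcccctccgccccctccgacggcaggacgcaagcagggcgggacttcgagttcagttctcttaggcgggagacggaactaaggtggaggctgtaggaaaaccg

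The first Pfkfb2 window holds ACGTG at position -172 from the start. The other Pfkfb2 window, where 1 coding transcript starts, holds CACGTG at -22, and the Pfkfb3 window holds it at -53. The part of these letters in the differences was not tested. In the Pfkfb1 window shown none of the searched motifs was found. Of the 32 genes, 31 had a promoter entry (all but Slc2a4). CACGTG was in a window of 6 of the 31 (Gyg, Ldha, Pfkfb2, Pfkfb3, Pfkm and Slc16a1), against 8.09% of 27025 genes, and ACGTG in a window of 19 of the 31, against 21.8%. By window, CACGTG was in 6 of 49, against 7.15% of 32851 windows, and ACGTG in 23 of 49, against 19.6%. The D-box was found in Eno1 alone among the 31, against 2.72% of all genes. ACANNNTGT was found in another window of Pfkfb1 alone, against 7.90% of all genes. These are letter matches in fixed windows and show no binding.

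Circadian clock genes also differed between the groups of hearts. Dbp, a clock output gene, measured 2.29, 1.70 and 1.95 FPKM in the WT set, against 40.5, 36.8 and 28.6 FPKM in the KO set. Arntl (BMAL1), a clock factor, measured 9.86, 7.20 and 6.63 FPKM in the WT set, against 0.511, 1.01 and 0.532 FPKM in the KO set. The hour at which each heart was taken is not in the labels, so a difference in genotype and a difference in the hour of collection cannot be told apart here. Their part in the PFKFB values was not tested.

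At the entry of glucose, no gene was called, and Hk1 was the only 1 of 4 with an unadjusted p under 0.05. Hk1, the hexokinase of most tissues, measured 21.6, 20.3 and 22.1 FPKM in the WT set, against 17.3, 14.2 and 17.5 FPKM in the KO set. Every KO heart lay below every WT heart, at a ratio of the means of 0.766 and a log2 difference of -0.37 ± 0.15 (SE; 95% interval -0.72 to -0.02). This had limma's unadjusted p = 0.0416 and adjusted p = 0.557. Hk2, the hexokinase of muscle, measured 26.0, 29.0 and 30.9 FPKM in the WT set, against 18.0, 17.8 and 28.2 FPKM in the KO set. Only KO replicate 3 reached into the WT range. The log2 difference was -0.43 ± 0.22 (SE; limma adjusted p = 0.675). Over left-out libraries it ran from -0.66 without KO replicate 3 (adjusted p = 0.277) to -0.27 without KO replicate 2 (adjusted p = 0.739).

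Slc2a4, the insulin-sensitive carrier and the most abundant of these 4, measured 33.6, 35.0 and 39.7 FPKM in the WT set, against 36.6, 26.3 and 41.4 FPKM in the KO set. KO hearts held both the lowest and the highest value. Its log2 difference of -0.06 ± 0.22 (SE; adjusted p = 0.968 in limma) was positive without KO replicate 2 (0.17) and without WT replicate 3 (0.048). The basal carrier Slc2a1 (GLUT1) ranged from 4.60 to 5.32 FPKM in the WT set and from 4.92 to 6.43 FPKM in the KO set, with a log2 difference of 0.12 ± 0.12 (SE).

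In upper glycolysis, from glucose 6-phosphate to the triose phosphates, all 6 tested genes had a lower estimate in KO hearts and none had an unadjusted p under 0.05. Pfkm, the muscle phosphofructokinase, measured 127, 135 and 142 FPKM in the WT set, against 115, 81.2 and 116 FPKM in the KO set. The deposited FPKM did not overlap, but after library scaling KO replicates 1 and 3 lay above WT replicate 1, and KO replicate 2 stood far below the other KO hearts. The log2 difference was -0.37 ± 0.21 (SE; 95% interval -0.85 to 0.11), with an adjusted p of 0.707 in limma. Tpi1, triose phosphate isomerase, measured 132, 140.2 and 131 FPKM in the WT set, against 118, 109 and 122 FPKM in the KO set. The deposited FPKM again did not overlap, though the scaled values did, with means of 135 ± 4.93 and 116 ± 6.75 FPKM (SD, n = 3 each). Its log2 difference was -0.20 ± 0.14 (SE; limma adjusted p = 0.780).

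Aldoa, the aldolase of muscle, was the most abundant gene of this stretch. It measured 266, 287 and 287 FPKM in the WT set, against 266, 212 and 284 FPKM in the KO set, so only KO replicate 2 lay outside the WT range. The log2 difference of -0.13 ± 0.19 (SE; limma adjusted p = 0.898) was 0.036 without that library. A second row with the symbol Aldoa was listed at 0.524 FPKM in WT replicate 1 and at 0 elsewhere, and it was left out. Gpi1 (glucose phosphate isomerase), Pfkl and Pfkp (liver and platelet phosphofructokinase) had log2 differences of -0.02, -0.05 and -0.11. Pfkp overlaps an opposite-strand gene, Pitrm1, by 748 bases, and whether strand was used in counting is not given in the sources used here, so its level is uncertain.

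In lower glycolysis, from glyceraldehyde 3-phosphate to pyruvate, 5 of 7 genes had a lower estimate and none had an unadjusted p under 0.05. Eno3, the muscle enolase, measured 230.0, 233 and 233 FPKM in the WT set, against 191, 152 and 199.5 FPKM in the KO set. In deposited FPKM the WT hearts agreed within a few FPKM, and all KO hearts lay below them. After library scaling the WT hearts lay 0.068, 0.20 and 0.27 log2 units above the gene's mean, and the highest KO heart 0.0048 above it. The means were 232 ± 1.92 and 181 ± 25.4 FPKM (SD, n = 3 each), and the log2 difference was -0.36 ± 0.18 (SE; 95% interval -0.77 to 0.05), with an adjusted p of 0.661 in limma. Pkm, pyruvate kinase, measured 166, 172 and 167 FPKM in the WT set, against 166, 139 and 149 FPKM in the KO set. KO replicate 1 and WT replicate 1 nearly met in deposited FPKM and changed places after library scaling, and the log2 difference was -0.14 ± 0.15 (SE; limma adjusted p = 0.855).

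Pgam2, the muscle phosphoglycerate mutase, measured 333, 435 and 446 FPKM in the WT set, against 413, 384 and 347 FPKM in the KO set. All KO values lay inside the WT range. The log2 difference was -0.06 ± 0.20 (SE; limma adjusted p = 0.963). Pgam1, the form of most other tissues, had means of 30.7 ± 2.67 FPKM in the WT set, against 38.3 ± 7.29 FPKM in the KO set (SD, n = 3 each). The estimate of the log2 difference was 0.31 ± 0.14 (SE; 95% interval -0.01 to 0.63), with an adjusted p of 0.602 in limma. A pseudogene row, Pgam1-ps2, carries 20.9% of their summed FPKM at 100% identity, and the difference of the sum was 0.30 ± 0.13 (SE). Pgk1 (phosphoglycerate kinase) and Eno1 (the broadly expressed enolase) each had a log2 difference of -0.01.

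Gapdh, glyceraldehyde 3-phosphate dehydrogenase and a common reference gene, needs its copies beside it. The Gapdh row measured 146, 197 and 196 FPKM in the WT set, against 223, 169 and 155 FPKM in the KO set, with overlapping groups and a log2 difference of 0.03 ± 0.23 (SE; limma adjusted p = 0.987). Another 70 rows are pseudogenes that match the Gapdh transcript at 95% identity or more over at least 200 bases, and 26 of them have a mean of at least 1 FPKM. Together they hold a mean of 776 FPKM, 81.1% of the sum with Gapdh itself. A window of 60 coding bases (532 to 591 of the Gapdh coding sequence, GENCODE M21 transcripts) is printed. Among windows aligned without gaps, the choice took the largest number of shown copies that differ from Gapdh. Ties went to the most differing bases and then to the first window. Even there, a fragment cannot be assigned to 1 of the rows shown, or can be by a single base. Capitals mark bases that differ from Gapdh.
Gapdh, chromosome 6: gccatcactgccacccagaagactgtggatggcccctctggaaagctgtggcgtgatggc
Gm7336, chromosome 7: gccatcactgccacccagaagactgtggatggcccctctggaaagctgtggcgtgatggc
Gm5559, chromosome 5: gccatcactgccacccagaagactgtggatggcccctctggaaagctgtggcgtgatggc
Gm2606, chromosome 15: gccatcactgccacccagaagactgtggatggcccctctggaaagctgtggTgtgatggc
Gapdh-ps15, chromosome Y: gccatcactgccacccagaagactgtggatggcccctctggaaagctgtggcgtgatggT

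Gm7336 and Gm5559 are identical to Gapdh in this window, and Gm2606 and Gapdh-ps15 differ from it at 1 base. The Y-linked Gapdh-ps15 was listed at 33.5, 38.2 and 45.5 FPKM in the WT set, against 35.6, 31.4 and 33.7 FPKM in the KO set. KO replicate 3, with Ddx3y at 0.0280 FPKM, thus had a value of this Y-linked row within the range of the male-looking libraries. Summed with all pseudogene rows, Gapdh measured 901, 1042 and 1092 FPKM in the WT set, against 963, 854 and 891 FPKM in the KO set. The log2 difference of the sum was -0.15 ± 0.20 (SE; 95% interval -0.62 to 0.32), with an adjusted p of 0.893 in limma, so row and sum had estimates of opposite sign and neither passed.

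**Figure D3:**
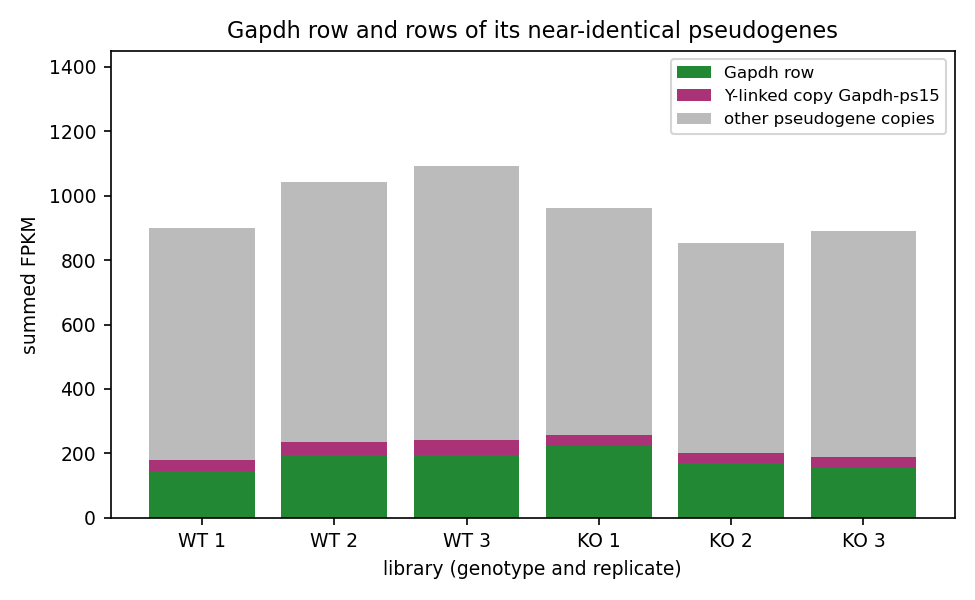
Summed FPKM (y axis, from 0) in each library (x axis), with bars stacked from the Gapdh row and the rows of its near-identical pseudogenes. The pseudogene rows hold 81.1% of the mean sum, and the sums run from 854 to 1092 FPKM.

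Ldhb, the heart form of lactate dehydrogenase, which favours lactate as a fuel, had the highest level of the 32 rows and made up 19.4% of their summed mean FPKM, with Gapdh counted by its own row alone. It measured 465, 599 and 686 FPKM in the WT set, against 546, 419 and 538 FPKM in the KO set. The groups overlapped, and its difference was -0.20 ± 0.25 log2 units (SE; limma adjusted p = 0.882). Ldha, the form of fast muscle, ranged from 88.6 to 105 FPKM in the WT set and from 81.9 to 108 FPKM in the KO set. Among the monocarboxylate carriers, Slc16a1 (MCT1), which takes up lactate, had means of 30.9 ± 1.16 and 31.3 ± 7.88 FPKM (SD, n = 3 each). Slc16a3 (MCT4), known for lactate export from glycolytic cells, ranged from 0.951 to 2.78 FPKM in the WT set and from 1.11 to 2.23 FPKM in the KO set. None of these 4 lactate genes had an unadjusted p under 0.05.

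In glycogen metabolism, 5 of 6 genes had a lower estimate in KO hearts, and none had an unadjusted p under 0.05. Pygm, the muscle phosphorylase that frees glucose from glycogen, measured 140.4, 165 and 163 FPKM in the WT set, against 129.7, 98.6 and 132 FPKM in the KO set. Every KO heart lay below every WT heart in deposited FPKM, KO replicate 2 being the lowest, but KO replicates 1 and 3 lay above WT replicate 1 after library scaling. The log2 difference was -0.37 ± 0.20 (SE; 95% interval -0.83 to 0.09), with an adjusted p of 0.693 in limma. Pygb, the brain phosphorylase, was nearly as abundant, with means of 114 ± 11.2 and 103 ± 6.21 FPKM (SD, n = 3 each) and a log2 difference of -0.13. On the side of synthesis, Gys1 (glycogen synthase), Gyg (glycogenin, the primer), Gbe1 (branching enzyme) and Ugp2 (which makes the UDP-glucose donor) had log2 differences of -0.15, -0.03, -0.03 and 0.03. Gys1 overlaps the opposite-strand gene Ruvbl2 by 290 bases and is uncertain for the same reason as Pfkp.

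Ordered by the level of their own rows, Ldhb had a mean of 542 FPKM over the 6 libraries, Pgam2 393, Aldoa 267, Eno3 206, Gapdh 181, Pkm 159.7, Pygm 138, Tpi1 125, Pfkm 119 and Pygb 108 FPKM. With its pseudogene rows, at sums of 854 to 1092 FPKM, Gapdh would stand first. Ldhb, which ran from 419 to 686 FPKM, overlapped Pgam2, from 333 to 446 FPKM, while Pgam2 lay wholly above Aldoa, from 212 to 287 FPKM. From Aldoa down to Pygb, each gene overlapped the next in its range over the libraries. At the other end stood Pfkfb2 at 4.53, Pfkfb3 at 3.91, Slc16a3 at 1.65, Pfkfb4 at 1.28 and Pfkfb1 at 1.21 FPKM. The enzymes of the pathway thus lay high, with 22 of the 32 genes at a mean of 10 FPKM or more, while the PFKFB genes that regulate it lay between 1.21 and 4.53 FPKM.

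Isoform choice within a step was compared through shares of summed FPKM in 9 steps, with no separation of the genotypes in any. Pfkm held 89.6% ± 0.985 of phosphofructokinase FPKM in WT and 87.2% ± 3.41 in KO hearts (SD, n = 3 each). For Eno3 the shares of enolase were 90.9% ± 0.739 and 88.6% ± 2.63, and for Pygm those of phosphorylase were 57.9% ± 0.604 and 53.7% ± 4.98. Pgam2 held 92.8% ± 1.73 and 90.8% ± 2.01 of its step. Slc2a4 held 87.7% ± 1.68 and 85.8% ± 4.77 of the carriers, and Hk2 57.2% ± 2.32 and 56.1% ± 5.37 of the hexokinases. The muscle isoform was the more abundant one in all 6 libraries, except that Pygm was at 48.2% in KO replicate 2. Ldhb held 85.2% ± 3.47 and 84.4% ± 1.63, Slc16a1 95.1% ± 3.18 and 94.4% ± 2.75, and Aldoa 99.98% and 99.94% of their steps. The smallest two-sided exact permutation p of the 9 was 0.2 (adjusted 0.45), for Pfkm, Pgam2, Eno3 and Pygm, in a design whose smallest possible p is 0.1.

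**Figure D4:**
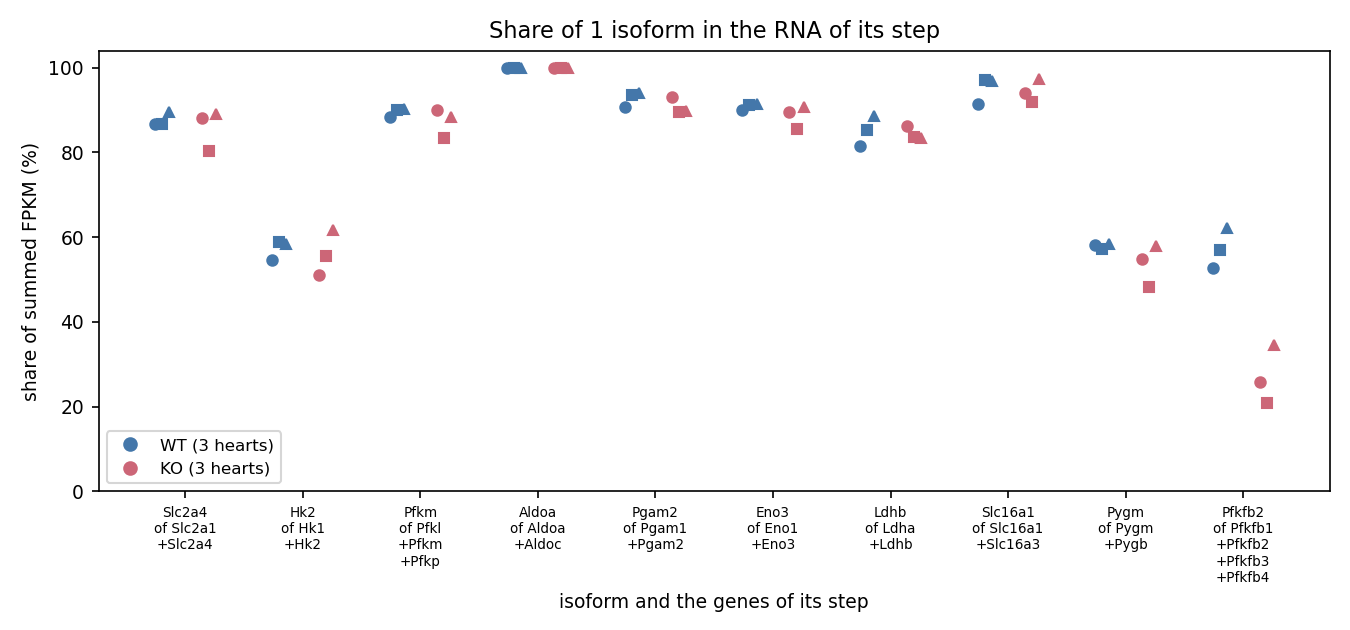
Share of 1 isoform in the summed FPKM of its step (y axis, percent) for 9 steps and, added later, Pfkfb2 among the PFKFB genes (x axis), with 1 marker per library in the colour of its genotype. WT and KO markers overlap in all 9 steps, with Pygm at 48.2% in KO replicate 2, and are apart for Pfkfb2.

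Grouped by isoform type, a division chosen with the values known, all 6 muscle isoforms (Slc2a4, Hk2, Pfkm, Pgam2, Eno3 and Pygm) had a lower estimate in KO hearts, with a median of -0.36 log2 units. The 7 isoforms of broad expression (Slc2a1, Hk1, Pfkl, Pfkp, Pgam1, Eno1 and Pygb) were lower in 5 of 7, with a median of -0.05. No gene of either group was called, and the difference between the groups was not tested. Aldoa and Ldhb, at -0.13 and -0.20, were placed in neither. KO replicate 2 was the lowest library for 5 of the 6 muscle isoforms and the highest for 4 of the 7 broad ones. Without this library the estimate of Slc2a4 was 0.17, and the other muscle isoforms lay between -0.27 (Hk2) and -0.03 (Pgam2).

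That library stands apart over all the genes described. In deposited FPKM it had the lowest value for 16 of the 31 tested genes, while 14.6% of all tested genes had their lowest value there. After library scaling, the median deviation of the 31 from their means was -0.28 log2 units in KO replicate 2. It was -0.07, 0.12 and 0.17 in WT replicates 1 to 3 and -0.02 and 0.02 in KO replicates 1 and 3. Its cell markers also stood apart. The geometric mean FPKM of 12 cardiomyocyte markers was 630 in KO replicate 2, against 766 to 977 in the WT hearts and 818 and 931 in the other KO hearts. The geometric mean of 8 fibroblast markers was 159, the highest of the 6, with WT replicate 1 next at 140.3 and the rest between 73.2 and 113.

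None of the 12 cardiomyocyte markers was at 0, their summed FPKM was 17990 to 26646 in WT and 19223 to 26208 in KO hearts, and 11 of 12 had a lower estimate in KO hearts (median -0.13, none called). The fibroblast list summed to 1027 to 2058 FPKM in the WT set, against 1209 to 2375 FPKM in the KO set, and 7 of 8 had a higher estimate. Macrophage and leucocyte markers, 6 of 7 tested lower, summed to 448 to 860 and 413 to 590 FPKM. Skeletal muscle markers, which matter for Pgam2, Eno3 and Pygm, were lower in 4 of 4 tested. They summed to 275 to 360 and 120 to 318 FPKM, nearly all of it from Acta1. The sums thus follow that gene and cannot be read as an amount of skeletal muscle. Acta1 measured 247, 296 and 359 FPKM in WT replicates 1 to 3, against 113, 315 and 119 FPKM in KO replicates 1 to 3. The other tested markers, Mylpf, Tnnt3 and Pvalb, were highest in WT replicate 1, at 8.62, 10.9 and 4.95 FPKM. KO replicate 1 came next, at 2.43, 2.95 and 2.04 FPKM. Elsewhere Tnnt3 (fast troponin T) was at most 0.556 FPKM. Acta1 did not follow these markers and, among WT hearts, was lowest in WT replicate 1. Erythroid markers, lower in 5 of 5, summed to 6301 to 11040 and 4403 to 7276 FPKM. Endothelial markers, higher in 4 of 6, summed to 302 to 310.3 and 272 to 348 FPKM, and mural cell markers, higher in 5 of 6, to 507 to 564 and 531 to 674 FPKM. Of 5 adipocyte markers 2 were tested, 1 higher and 1 lower, and Ucp1, which defines brown fat, was listed at 0 in all libraries. In whole hearts, fewer cells of a type and less RNA per cell cannot be told apart, and the part of cell make-up in the results was not tested.

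With cardiomyocyte markers as the scale, an alternative added after the data were seen, the median of all genes moved from -0.004 to 0.13 log2 units. The 31 genes then had a median of 0.09, still below that of all genes, and 9 of the 31 had an estimate below 0. The share of all genes below 0 was not computed on this scale, so that count has no background beside it. Pfkfb2 kept its sign at -0.76, as did Pfkfb3 at 1.23 and Pfkfb1 at 0.95, with adjusted p of 0.753, 0.663 and 0.753 in limma. Of the muscle isoforms, Hk2 (-0.28), Pfkm (-0.22), Eno3 (-0.20) and Pygm (-0.22) kept estimates below 0 on this scale. Slc2a4 and Pgam2 each had an estimate above 0 (0.093 and 0.092), though below the median of all genes.

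**Figure D5:**
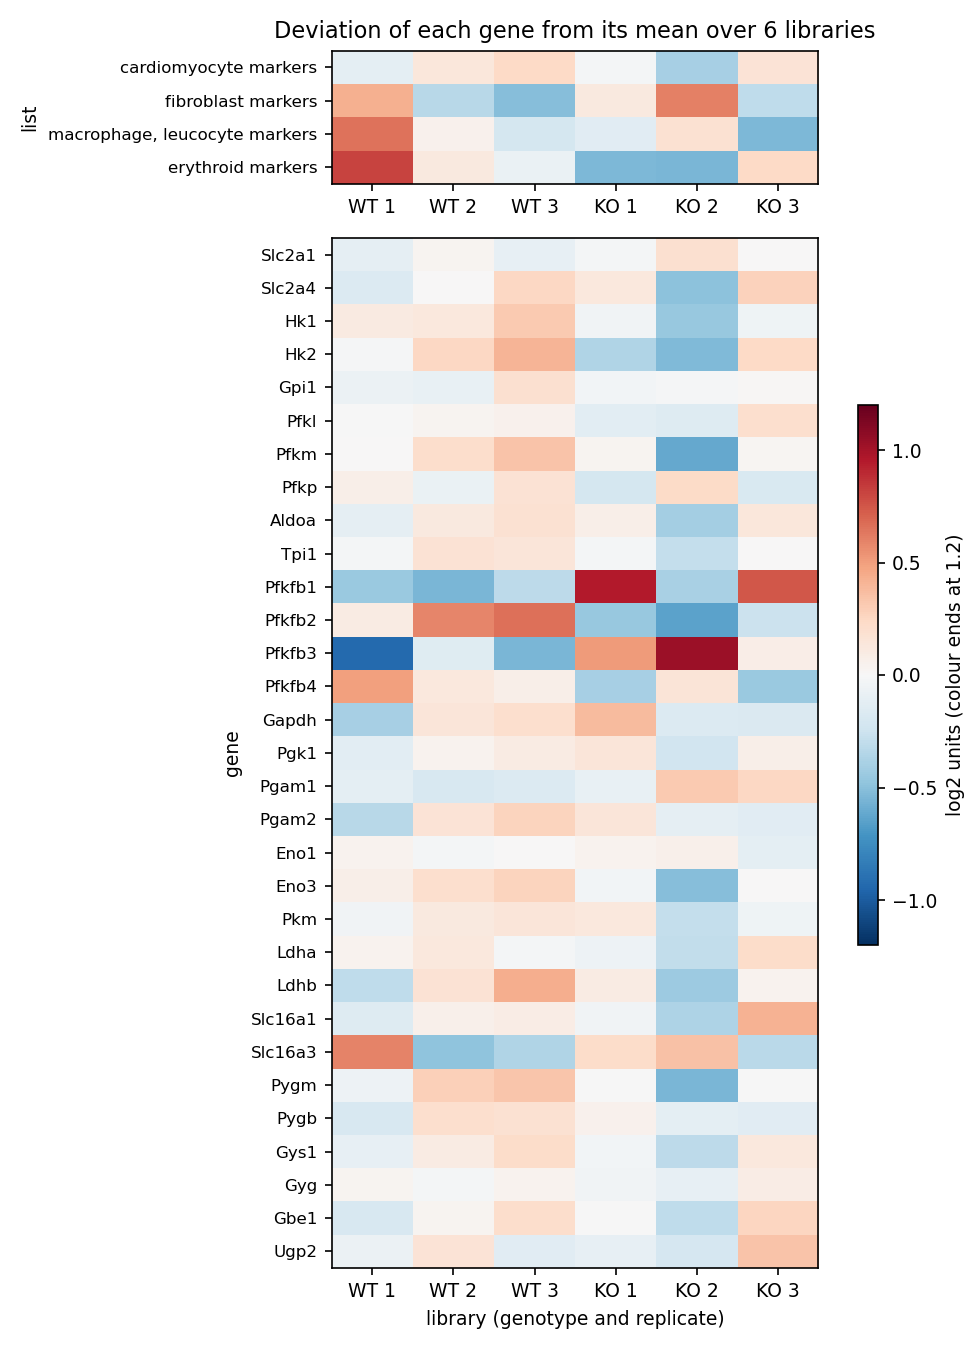
Deviation of each tested gene from its own mean over the 6 libraries, after library scaling (colour, log2 units, ending at 1.2 on either side), by library (x axis) and gene (y axis). The upper panel shows the deviation of the geometric mean of 4 marker lists, in deposited FPKM. The median deviation of the 31 genes is lowest in KO replicate 2, at -0.28 log2 units, and highest in WT replicate 3, at 0.17.

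Of 55 further genes of glucose carriage, glycolysis, lactate, pyruvate and glycogen, 44 were tested and none was called. The lowest adjusted p was 0.283. Estimates were lower in KO hearts for 24 and higher for 20, with a median of -0.04. At an unadjusted p under 0.05 there were 4 genes, or 9.09%, near the 8.48% of all tested genes, and all 4 were lower. The groups did not overlap for 5, among them Pygl, Pgm1, Pgm5 and Ppp1r3c, or 11.4%, against 12.8% of all tested genes, and after library scaling for 4, without Pgm1, against 14%.

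Of the 4 genes with an unadjusted p under 0.05, 3 belong to the 24 tested further genes of glycogen. Ppp1r3c, a subunit that brings protein phosphatase to glycogen and favours its synthesis, measured 46.8, 45.7 and 58.4 FPKM in the WT set, against 28.4, 36.2 and 34.1 FPKM in the KO set. Its log2 difference was -0.59 ± 0.16 (SE; limma unadjusted p = 0.00694, adjusted p = 0.294). Pygl, the liver phosphorylase, measured 2.33, 1.84 and 1.62 FPKM in the WT set, against 1.07, 1.13 and 1.13 FPKM in the KO set. Its log2 difference was -0.57 ± 0.15 (SE; limma unadjusted p = 0.00601, adjusted p = 0.283). In both, every KO heart lay below every WT heart, and KO replicate 2 was not the lowest in deposited FPKM. After library scaling it was the lowest for Pygl, but not for Ppp1r3c.

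Pgm5, a relative of phosphoglucomutase found at muscle cell contacts and known to lack most of the enzyme activity, measured 32.1, 35.5 and 30.7 FPKM in the WT set, against 25.4, 26.0 and 27.1 FPKM in the KO set. Its log2 difference was -0.31 ± 0.12 (SE; limma unadjusted p = 0.0354, adjusted p = 0.529). The 6 tested genes of lactate and pyruvate, which include the mitochondrial pyruvate carrier (Mpc1 and Mpc2), gave no unadjusted p under 0.05, and 5 of the 6 had a higher estimate in KO hearts.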

How the data were processed

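RNA from 6 infarcted mouse hearts was sequenced from Illumina TruSeq RNA libraries, per the labels' protocols. Samples were grouped by the genotype in their titles. The deposited table calls itself counts, yet its values are FPKM that the authors computed per gene; 37.2% to 40.4% of a library's values are not whole. Per the submitters' processing notes, Bowtie 0.12.2 and the builds mm8 and mm9 were named without a role; for quantification tool, annotation and strand, nothing is given in the sources used here.

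Symbols and coordinates came from GENCODE M21 (GRCm38), which 52403 of 52550 rows matched by identifier, 93.3% of all rows with the same version. The test covered the 14656 rows that reached 0.5 FPKM in at least 3 libraries. FPKM was divided by a trimmed mean of log2 ratios (trims of 0.3 and 0.05), 0.5 was added, and log2 values were fitted by genotype with limma 3.58.1 in R 4.3.3, with a mean-variance trend, two-sided tests and Benjamini-Hochberg adjustment. Fold changes on this scale understate those of low genes. Confidence intervals are 95%; no counting interval was given, since FPKM are not counts. Isoform shares were compared by exact permutation tests. Pseudogene copies were found with BLAST+ 2.17.0. The fit was checked on simulated data.

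The members and gene lists were chosen with earlier results of these data known. Values by library are given for genes with an unadjusted p under 0.05 or no overlap, the 5 largest differences and the most abundant gene of each role, and for other pathway genes with an unadjusted p under 0.05; Slc2a1, Gapdh, Pgam1, Ldha and others were described beyond that rule. One further pathway gene that met this rule is not reported here.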

Additional observations from a re-analysis of the deposited data

How the results depend on the processing

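None of the 32 genes that could be tested was called under any of 18 alternatives (scaling, pseudocount, filter, variance model, replicate block, each library left out, pseudogene rows added), and the lowest adjusted p of a named gene was 0.0883 in limma (Pfkfb1 without KO replicate 2). Over all tested genes, 55 were called; the count was 20 with no filter on low values, where more rows were tested, 34 with cardiomyocyte-marker scaling, and 12 to 36 with a library left out. Of 341 alternative values of named genes, 9 changed sign. With cardiomyocyte-marker scaling these were Slc2a4 (0.093), Pgam2 (0.092), Aldoa (0.022) and Pkm (0.013). With a library left out, Pgam2 ran from -0.25 to 0.051 (above 0 without WT replicate 2 or 3), Slc2a4 from -0.21 to 0.17 (above 0 without WT replicate 3 or KO replicate 2) and Aldoa from -0.24 to 0.036 (above 0 without KO replicate 2). Leaving out a library moved the share difference, in percentage points, from -3.44 to 0.88 for Slc2a4, -3.95 to 1.40 for Hk2, -2.54 to 0.93 for Ldhb and -2.53 to 0.58 for Slc16a1. The cause was not tested. Same-numbered samples had correlations of 0.0076, -0.036 and 0.18, and differently numbered ones from -0.20 to 0.19. These few values show no pairing by number and cannot exclude it. With the replicate block 42 genes were called, none of them among the 32. At 3 hearts a group, the intervals above bound what could be seen.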
